A study of Mus musculus with 4 samples.

Results

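The enzymes that build cholesterol from acetyl-CoA were followed through 7 genes: Hmgcs1, Mvk, Idi1, Fdps, Fdft1, Sqle and Lss. They were taken by name from the 32812 genes with a symbol in the deposited count table, and the rule uses no measured value, although the list was proposed with earlier results of these data known. The table compares cultured female germline stem cells of C57BL/6 mice, kept for more than 20 passages, without (control, 2 libraries) and with spermidine (2 libraries) for 4 h. Spermidine is a polyamine studied as an inducer of autophagy, which is the subject the series names. No dose is given in the sources used here, and both groups share strain, cell type and passage range. Whether the libraries of a group are separate cultures is not in the labels, and p-values therefore cover only the spread of these libraries, which may be technical.

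Cholesterol synthesis begins with the mevalonate pathway, in which HMG-CoA is formed by Hmgcs1, turned to mevalonate and phosphorylated by Mvk. The resulting isoprene units are isomerised by Idi1 and joined to farnesyl diphosphate by Fdps, a branch point that also feeds dolichol, ubiquinone and protein prenylation. Fdft1 joins a pair of farnesyl diphosphates to squalene, Sqle oxidises squalene, and Lss closes the rings to give lanosterol, which later enzymes turn into cholesterol. The transcription factor SREBP-2, held back in the endoplasmic reticulum by INSIG proteins when sterols are plentiful, drives most of these genes together, with NF-Y at CCAAT boxes as a partner. In the ovary, cholesterol is the substrate of steroid hormones, and mouse oocytes rely on the surrounding granulosa cells for much of their supply.

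RefSeq promoter windows (GRCm38.p6) were found for 4 of the 7 genes, Hmgcs1, Mvk, Idi1 and Lss. The 250 bases before the transcription start are shown for Idi1, the member with a called change, at chr13:8885356-8885605 on the plus strand. They are also shown for Hmgcs1, the only member with a sterol regulatory element in its window, at chr13:119690101-119690350 on the plus strand. Capitals mark CCAAT boxes (CCAAT, read as ATTGG on the other strand) and, in Hmgcs1, the sterol regulatory element.
Idi1: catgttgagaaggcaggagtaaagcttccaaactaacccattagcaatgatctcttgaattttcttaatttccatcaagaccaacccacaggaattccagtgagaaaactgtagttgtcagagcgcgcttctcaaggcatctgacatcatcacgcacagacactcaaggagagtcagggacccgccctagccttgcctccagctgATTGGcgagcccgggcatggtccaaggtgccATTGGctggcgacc
Hmgcs1: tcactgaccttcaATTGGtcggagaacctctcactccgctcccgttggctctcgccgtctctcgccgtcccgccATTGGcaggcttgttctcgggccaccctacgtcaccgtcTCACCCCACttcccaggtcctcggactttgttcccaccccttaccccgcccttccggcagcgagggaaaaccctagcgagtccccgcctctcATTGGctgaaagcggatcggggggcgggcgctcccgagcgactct

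The Idi1 window held 2 CCAAT boxes, from 45 to 41 and from 14 to 10 bases before the start. The Hmgcs1 window held 3 CCAAT boxes and 1 match to TCACNCCAC, the sterol regulatory element searched here, from 137 to 129 bases before the start. The Mvk window held 5 CCAAT boxes and the Lss window 1, and neither matched the sterol element. Both strands were searched, and the CCAAT boxes did not overlap the sterol element. Of all 32851 windows of this length, 33.9% held a CCAAT box and 1.05% the sterol element. GC boxes (GGGCGG), the sites of Sp1-type factors, were present in all 4 windows and in 32.7% of all windows. Of 16 windows of other sterol synthesis genes, taken up further below, 68.8% held a CCAAT box and 75.0% a GC box. None of those windows matched the sterol element. A match describes letters in a window and shows no binding.

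How far each member could be measured depended on its transcript models. The 7 genes had 17 transcript rows in the table, and reads that overlapped several rows had been left out of the counts, so only bases that belong to 1 row could be counted. Sqle (chr15:59315092-59331193, GRCm38, plus strand, 11 exons) and Idi1 (chr13:8885606-8892396, plus strand, 5 exons) had 1 row each and were counted over all their 2748 and 2867 exon bases. Fdps (chr3:89093588-89101967, minus strand) had 216 countable bases, the exon at chr3:89100921-89101136 that 1 of its 2 rows lacks. Hmgcs1 on chromosome 13 and Mvk on chromosome 5 had 99 and 1 countable bases, in 1 predicted row each of their 3 and 4 rows. Their 0 counts in all 4 libraries therefore say nothing of their expression.

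Fdft1 on the minus strand of chromosome 14 had 5546 countable bases, of which 475 belonged to its curated model. The largest single stretch, 2413 bases at chr14:63159238-63161650, lies in an intron of the curated model and is an exon only in a predicted one. In Lss, on chromosome 10, all counts fell on a predicted row with 390 bases of its own at chr10:76547004-76547393, again in an intron of the curated model. Sqle and Idi1 are thus the members whose mature transcript was measured, Fdps was measured on 1 exon, and the counts of Fdft1 and Lss lie mostly or wholly outside their curated exons.

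The libraries differed in size and content. Total counts were 7206176 and 7128901 for the controls, against 787600 and 1718944 with spermidine. The ribosomal row AY036118 made up 1.68% and 1.64% of the controls, against 29.6% and 30.7% with spermidine. Olfactory and vomeronasal receptor genes, which are not known as genes of this cell type, had 0.0631 and 0.154 counts per kb of countable bases in the controls, 3.18 in spermidine replicate 1 and 0.177 in spermidine replicate 2. Of 10 germline markers for the labelled cell type, Tex19.1 had 1955 and 1770 counts in the controls, against 36 and 25 with spermidine. Ifitm3 had 49 and 132 against 72 and 146, Dppa3 2 and 3 against 9 and 263, and Kit 9 and 13 against 0 and 1. Prdm1 and Prdm14, on 3311 and 2593 countable bases, each had 0 and 0 against 11 and 0. Over all 4 libraries Ddx4 had 1 count, Dazl 3 and Zbtb16 2, on 434, 432 and 158 countable bases, and Nanos3 none on 12. Of all tested genes, 28.8% were called, 3.99% lower and 24.8% higher in spermidine, where a call is a Benjamini-Hochberg adjusted p under 0.05 in edgeR's quasi-likelihood test. The tested genes, 7836 in number, had a median log2 fold change of 0.23.

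Of the 7 cholesterol synthesis genes, 5 had counts and 4 could be tested, Idi1, Fdps, Fdft1 and Sqle. Idi1 fell, none rose, and Sqle was lower in both spermidine libraries without passing the test. The 1 call lower and 0 calls higher stand beside 3.99% and 24.8% of all tested genes, and 4 genes are too few to set against those shares. Both spermidine libraries lay under both controls for Idi1 and Sqle and above them for Fdft1 (on log2 counts scaled to library size with TMM factors), as they did for 29.6% and 36.6% of all tested genes. The median log2 fold change of the 4 members was -0.30. In bulk RNA, fewer cells of a type and less RNA per cell cannot be told apart.

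Idi1, the isomerase that interconverts the basic isoprene units, had 537 and 339 counts in the controls, against 14 and 18 with spermidine. As CPM, counts scaled to the total of each library, this was 74.5 and 47.6 against 17.8 and 10.5. Both spermidine libraries were low, and the groups did not overlap. The log2 fold change of Idi1 was -2.16 ± 0.69 (SE, n = 2 and 2, 4.46-fold lower; edgeR's quasi-likelihood test, Benjamini-Hochberg adjusted p = 0.0456). At the rate of counts on receptor genes, a stretch as long as Idi1 would hold 9.11 counts in spermidine replicate 1, beside the 14 observed, and 0.509 in replicate 2, beside 18. The call of Idi1 rests on the variant of the test: the older form of edgeR's quasi-likelihood test gave -2.14 and an adjusted p of 0.0615, and both forms had been run before the newer was taken. The call held in 4 of 15 alternatives, while the fold change was negative in all 15, from -2.64 to -1.28. Leaving out 1 library ended it for control replicate 1 (-1.71, edgeR adjusted p = 0.487), control replicate 2 (-2.44, 0.193) and spermidine replicate 1 (-2.31, 0.0986).

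Sqle encodes squalene epoxidase, a rate-limiting enzyme of the sterol-specific part of the pathway and the most counted member. It had 2533 and 2405 counts in the controls, against 113 and 234 with spermidine. As CPM this was 351.5 and 337.4 against 143.5 and 136.1. The groups were well apart and the replicates of each group close together. The log2 fold change of Sqle was -1.27 ± 0.51 (SE, n = 2 and 2, 2.41-fold lower), which did not pass the test (edgeR's quasi-likelihood test, Benjamini-Hochberg adjusted p = 0.0952). Without spermidine replicate 2 it passed, with -1.41 ± 0.47 (edgeR adjusted p = 0.0229, where the lone spermidine library was assumed to vary like the controls).

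The row AY036118 and the depth of the libraries move with these values. As CPM without that row, Sqle had 357.5 and 343.0 in the controls against 203.8 and 196.5, and Idi1 75.8 and 48.3 against 25.2 and 15.1. With all libraries thinned to 554572 counts and the row left out, Sqle had 200 and 197 counts in the controls against 113 and 106. Its log2 fold change was then -0.64 ± 0.40 (edgeR adjusted p = 0.328). Idi1 had 39 and 21 counts against 14 and 7, with -1.28 ± 0.76 (edgeR adjusted p = 0.308). The order of the groups was kept for both genes, with smaller differences and no call.

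**Figure D1:**
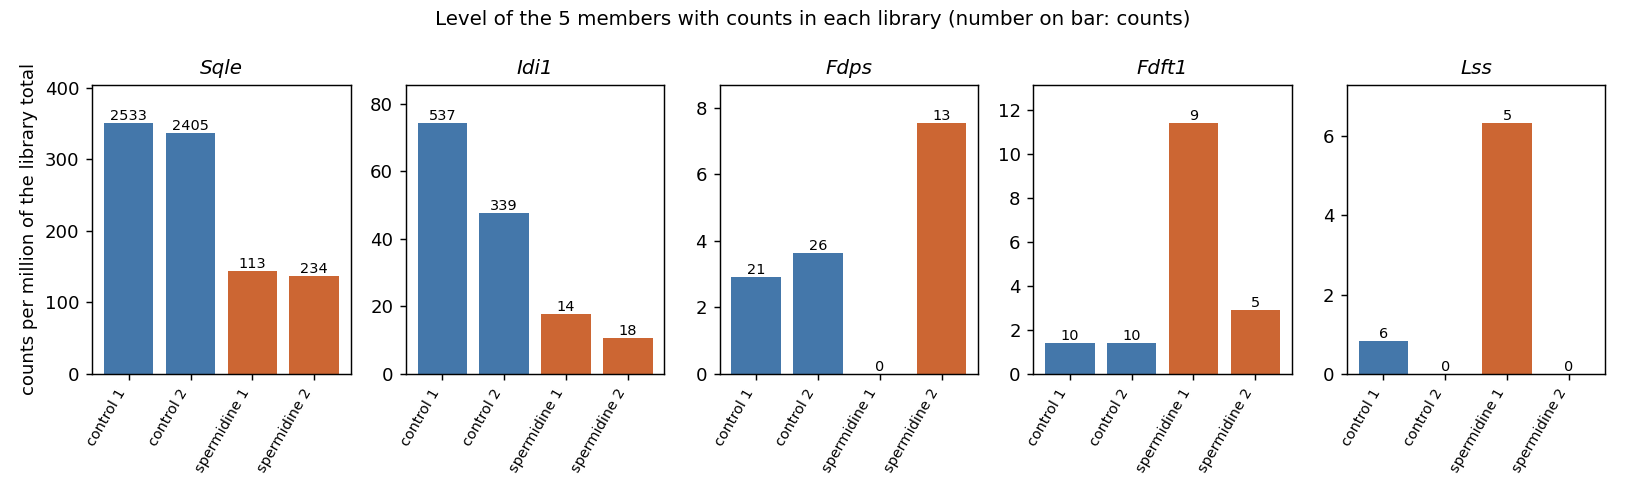
CPM, counts scaled to the library total (vertical axis, linear, starting at 0, with its own scale per gene) for the 5 members with any counts, in 2 control (blue) and 2 spermidine (orange) libraries; the number on each bar is the count itself. Sqle stands at 351.5 and 337.4 in the controls and 143.5 and 136.1 in spermidine, while Fdps, Fdft1 and Lss rest on at most 26 counts in a library.

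**Figure D2:**
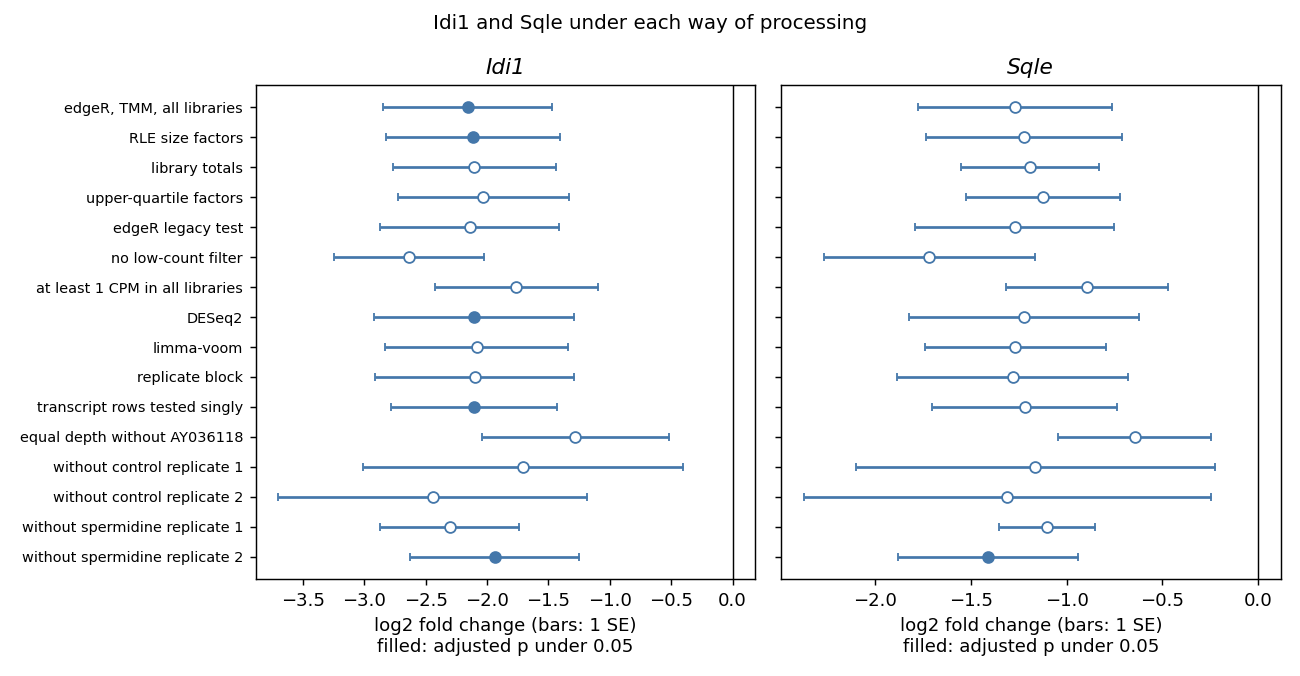
Log2 fold change of spermidine over control (horizontal axis, bars 1 SE) of Idi1 (left) and Sqle (right) as reported (top line) and under 15 other ways of processing; filled points passed the test of that setting. All points lie below 0, from -2.64 to -1.28 for Idi1 and from -1.72 to -0.64 for Sqle, with few of them filled.

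Fdps, which makes farnesyl diphosphate, had 21 and 26 counts in the controls, against 0 and 13 with spermidine, all on its 1 countable exon. As CPM this was 2.91 and 3.65 against 0 and 7.56. The spermidine libraries lie on either side of the controls. The limit that a count of 0 allows in spermidine replicate 1 is 3 counts, or 3.81 CPM, above both controls, so a lower level there was not detectable at this depth. The log2 fold change of Fdps was 0.68 ± 1.05 (SE; edgeR adjusted p = 0.665). Its sign turned with limma-voom (-0.70), and without spermidine replicate 2 the fitted value was -7.06, which is set by a group at 0 counts and is no bound.

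Fdft1, squalene synthase, had 10 and 10 counts in the controls, against 9 and 5 with spermidine. As CPM this was 1.39 and 1.40 against 11.4 and 2.91, so both spermidine libraries were higher, replicate 1 most of all. The log2 fold change of Fdft1 was 2.11 ± 0.91 (SE; edgeR adjusted p = 0.119). On the intronic stretch of the predicted model the counts were 9 and 9 against 6 and 5. At the rate of the receptor genes that stretch would hold 7.66 counts in spermidine replicate 1, so its 6 counts there do not exceed that rate. In spermidine replicate 2 it would hold 0.428, beside the 5 observed. On the 475 bases of the curated Fdft1 model the counts were 1 and 1 against 0 and 0. Without spermidine replicate 2 the value of Fdft1 was called higher (2.87, edgeR adjusted p = 0.029), on the library with the high background. Lss, the cyclase that makes lanosterol, had 6 and 0 counts in the controls against 5 and 0, and was too low to be tested.

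Levels can be compared between members only per length. Sqle had 128 and 123 CPM per kb of countable bases in the controls, and Idi1 26.0 and 16.6. Sqle was thus the higher of these members in both controls, and the same order held in spermidine, with 52.2 and 49.5 against 6.20 and 3.65. Fdps had 13.5 and 16.9 in the controls on its single exon, which overlaps the range of Idi1. Reads reaching from that exon into its neighbours were left out, so its value per kb is not on the same footing. Within each library, Idi1 had 21.2 and 14.1 counts for every 100 of Sqle in the controls and 12.4 and 7.69 in spermidine, a measure that library scaling cannot move.

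Further enzymes of sterol synthesis were taken as a list. Of 15 further genes of the pathway, 9 were tested, with a median log2 fold change of -0.30 against 0.23 for all tested genes. The latter include genes with few control counts, and no set of genes with like counts was compared. Among them 1 fell and none rose, beside 3.99% lower and 24.8% higher of all tested genes. Both spermidine libraries lay under both controls for 5 of the 9 and above them for 2, beside 29.6% and 36.6% of all tested genes. Of the 6 not tested, 2 had 0 counts in all libraries, and 10 of the 15 genes had at least 300 countable bases. Summed over the 22 genes of both lists, sterol synthesis took 2219 and 2177 CPM in the controls, against 1141 and 862 with spermidine. Without AY036118 in the total these sums were 2257 and 2213 against 1621 and 1244. Such sums follow the most counted genes of the lists, so they do not stand for each gene of the pathway.

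Cyp51, the lanosterol demethylase next after Lss, had 108 and 98.1 counts for every 100 of Sqle in the controls and 114 and 97.0 in spermidine, a ratio of counts to be compared between libraries and not a level per length. Per kb of countable bases Cyp51 had 87.6 and 76.1 CPM in the controls against 37.6 and 30.3, below Sqle in every library. Its log2 fold change was -1.26 ± 0.50 (edgeR adjusted p = 0.0957). Acat2, the cytosolic thiolase that supplies acetoacetyl-CoA at the entry of the pathway, had 42.6 and 45.2 per 100 Sqle counts in the controls and 45.1 and 54.3 in spermidine, with -1.06 ± 0.53 (edgeR adjusted p = 0.174). Neither passed the test, and both did without spermidine replicate 2 (edgeR adjusted p = 0.0367 for Cyp51 and 0.0391 for Acat2). At equal depth without AY036118 the values were smaller, -0.50 for Cyp51 (edgeR adjusted p = 0.466) and -0.49 for Acat2 (0.529).

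Other tested genes named from the list had smaller negative values or positive ones. Whether they differ from Cyp51 and Acat2 was not tested. Ebp, a sterol isomerase, had -0.62 ± 0.53, and Msmo1 and Nsdhl, which remove methyl groups from the ring, had -0.30 ± 0.50 and -0.29 ± 0.62. Pmvk, the kinase that follows Mvk, had 0.03 ± 1.09 from 51 and 24 control counts against 10 and 2. As CPM this was 7.08 and 3.37 against 12.7 and 1.16, with the spermidine libraries on either side of the controls. Sc5d, a sterol desaturase, and Tm7sf2, a sterol reductase, had positive values of 1.71 ± 0.71 and 1.55 ± 0.74. Sc5d had 67 and 74 counts in the controls, against 41 and 31 with spermidine, and Tm7sf2 61 and 47 against 25 and 26. None of these passed edgeR's test (adjusted p from 0.11 to 0.99). At equal depth without AY036118 Sc5d was called (3.20, edgeR adjusted p = 0.0382), as both were without spermidine replicate 2 (0.00707 and 0.0342).

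**Figure D3:**
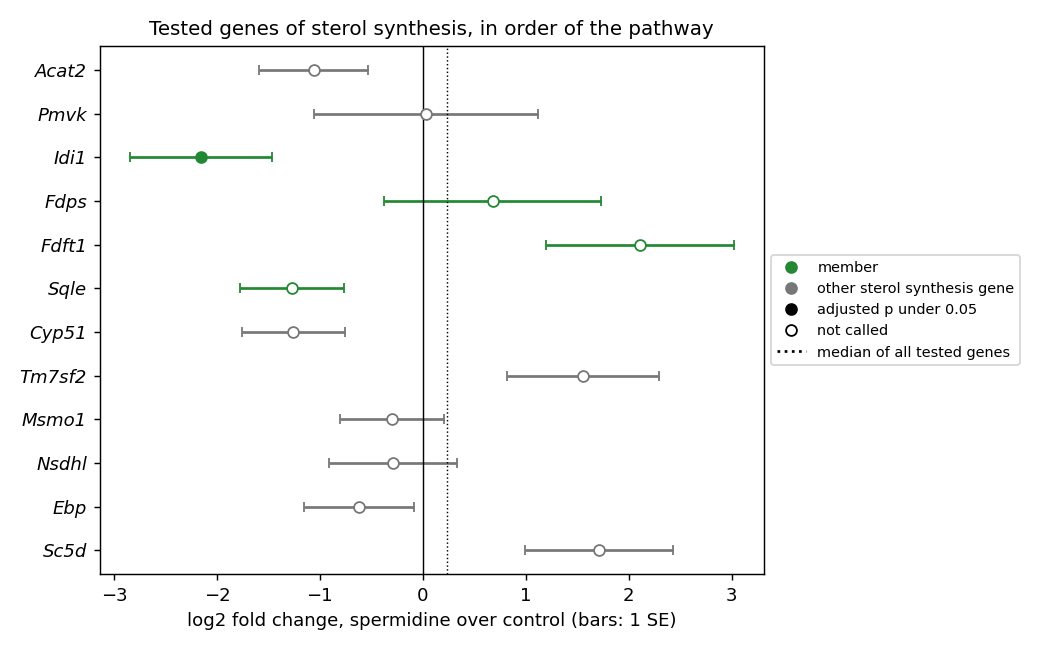
Log2 fold change of spermidine over control (horizontal axis, bars 1 SE, n = 2 and 2) for 12 tested genes of sterol synthesis, in the order of the pathway from top to bottom; green marks the 4 tested members, grey 8 others, and filled points passed edgeR's test. Idi1 at -2.16 is the only filled point among these 12, and the dotted line at 0.23 is the median of all tested genes.

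The sensors of sterol level were measured in part. Of 12 genes of sterol sensing, 6 were tested and none passed, beside 28.8% of all tested genes. Insig1, itself a target of SREBP-2, had 2613 and 1974 counts in the controls, against 76 and 248 with spermidine. Its log2 fold change was -1.32 ± 0.56 (edgeR adjusted p = 0.115). Srebf2, which encodes SREBP-2, had 379 and 426 counts against 18 and 46, with -1.10 ± 0.61 (edgeR adjusted p = 0.218). Both spermidine libraries were under both controls for these 2 genes and for no other of the 6 tested, as they were for 29.6% of all tested genes. Insig1 passed with library totals as scaling (edgeR adjusted p = 0.0468) and without spermidine replicate 2 (-1.88, 0.0071), and its value was -0.91 without spermidine replicate 1. At equal depth without AY036118 the value of Insig1 was -0.58 (edgeR adjusted p = 0.403) and that of Srebf2 -0.30 (0.813). With transcript rows tested singly, the row of Srebf2 with the smallest p had -2.18 (edgeR adjusted p = 0.0868). That value does not stand for the whole gene.

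The isoprenoid branch leaves the pathway at farnesyl diphosphate and makes dolichol, ubiquinone and the lipid anchors of proteins. Of its 13 genes 4 were tested, with a median log2 fold change of -0.64. Among them 1 fell and none rose, beside 3.99% lower and 24.8% higher of all tested genes. The gene that fell was Dhdds, a subunit of the enzyme that builds the dolichol chain. It had 9438 and 10451 counts in the controls, against 329 and 410 with spermidine, or 1310 and 1466 against 417.7 and 238.5 CPM. Both spermidine libraries were low. For Dhdds it came to a log2 fold change of -2.11 ± 0.54 (SE; edgeR's quasi-likelihood test, adjusted p = 0.0186). The call was lost in 7 of 15 alternatives, among them equal depth without AY036118 (-1.36, edgeR adjusted p = 0.072), the replicate block (0.0744) and the fits without control replicate 1 (0.204), control replicate 2 (0.2485) or spermidine replicate 1 (0.0566). Its sign was kept in all 15. Nus1, the partner subunit of Dhdds, had -0.69 ± 0.54 (edgeR adjusted p = 0.376), and -0.15 (0.872) at equal depth without AY036118.

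Uptake, transport, storage and efflux of cholesterol were followed through 21 genes, of which 11 were tested, with a median log2 fold change of -0.27. Among them 1 rose and none fell, beside 24.8% higher and 3.99% lower of all tested genes. The gene that rose was Lrp1, a large endocytic receptor for lipoprotein remnants, proteases and other ligands. It had 183 and 631 counts in the controls, against 648 and 2440 with spermidine, or 25.4 and 88.5 against 823 and 1419 CPM. Both spermidine libraries lay above both controls, as they did for 36.6% of all tested genes, and the replicates of each group lay well apart. For Lrp1 it came to a log2 fold change of 4.40 ± 0.81 (SE; edgeR's quasi-likelihood test, adjusted p = 0.00737). The Lrp1 call was lost in 3 of 15 alternatives. These were no low-count filter (4.01, edgeR adjusted p = 0.291) and the fits without control replicate 1 (3.82) or spermidine replicate 1 (4.88). Lrpap1, a chaperone of Lrp1, had 3678 and 4485 counts in the controls, against 206 and 455 with spermidine, with -1.08 ± 0.51 (edgeR adjusted p = 0.157). At equal depth without AY036118, Lrp1 had 5.35 (edgeR adjusted p = 0.00241) and Lrpap1 -0.39 (0.556).

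The summed levels of stroma, granulosa and theca, and oocyte markers were higher in spermidine, as Lrp1 was. Those of leukocyte and mast cell markers were lower. The calls below stand beside 24.8% of all tested genes called higher and 3.99% called lower. Of 10 stroma markers 8 were tested, 6 rose and none fell, and their summed level was 68.4 and 129 CPM in the controls against 2307 and 9093 in spermidine, with Postn at 0. Of 13 granulosa and theca markers 8 were tested and 7 rose, with sums of 155 and 129 against 2589 and 5734. Amh, Amhr2 and Hsd3b1 were at 0 in all libraries. Cyp11a1, tested and not called, had 130 and 107 CPM in the controls, most of those sums, against 297 and 80.3 in spermidine. Of 11 oocyte markers 6 were tested and all 6 rose, with sums of 1.39 and 2.52 against 211 and 1828, and Zp2, Nobox and Nlrp5 were at 0. Of 12 leukocyte and mast cell markers 5 were tested and 3 fell, with sums of 1480 and 1078 against 192 and 58.2. Laptm5, Spi1, Fcer1a and Ms4a2 were at 0. Plek alone had 1098 and 820 CPM in the controls against 104 and 33.7 in spermidine, so these sums mostly follow Plek. Of 10 germline markers 3 were tested, 2 rose and 1 fell. A marker at 0 may also be one with few countable bases. The markers thus differ between the groups in the same libraries in which Idi1, Dhdds and Lrp1 were called. The part of the markers in those calls was not tested.

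Fatty acid synthesis, which draws on the related factor SREBP-1, had 11 genes, of which 7 were tested, with a median log2 fold change of -0.82. Among them 1 fell and none rose, beside 3.99% lower and 24.8% higher of all tested genes. The gene that fell was Fasn, fatty acid synthase. It had 18582 and 15565 counts in the controls, against 448 and 871 with spermidine, or 2579 and 2183 against 569 and 507 CPM. Both spermidine libraries were low and close to each other. For Fasn it came to a log2 fold change of -2.13 ± 0.57 (SE; edgeR's quasi-likelihood test, adjusted p = 0.0216), and at equal depth without AY036118 it was -1.37 (edgeR adjusted p = 0.0486). The Fasn call was lost in 6 of 15 alternatives. Among them were no low-count filter (edgeR adjusted p = 0.291), at least 1 CPM in all libraries (0.072) and the replicate block (0.0947). The rest were the fits without control replicate 1, control replicate 2 or spermidine replicate 1. With 1 library left out, the log2 fold change of Fasn ran from -2.25 to -1.92. Its sign was kept in all 15.

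The genes whose profile over the 4 libraries was most like that of the summed members were Polr2a, Atp6v0a2, Polr2f, Psma6 and Nop9. Likeness was the Euclidean distance between log2 CPM, each centred on its own mean, over 5940 candidate genes outside the lists. The distances ran from 0.0664 for Polr2a to 0.100 for Nop9, and 31 genes lay within 0.2. Because Sqle and Idi1 held 90.1% to 98.8% of the members' counts in each library, this profile is mostly that of Sqle. Polr2a, the largest subunit of RNA polymerase II, had 8268 and 7408 counts in the controls, against 397 and 723 with spermidine, with a log2 fold change of -1.23 ± 0.52 (edgeR adjusted p = 0.113). None of the 5 passed the test.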

How the data were processed

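RNA of cultured mouse female germline stem cells, 2 control and 2 spermidine libraries at 4 h, was sequenced. The submitters' processing notes name HISAT2, DESeq2 and mm9, while 88.7% of matched transcript rows lie inside their gene's GRCm38 span, so coordinates are given in GRCm38. No source used here names the counting program. The values are raw read counts per RefSeq transcript, per the file headers, deposited by the authors. Of 106519 transcript rows 86040 were matched to a gene and summed per gene. Rows that share every base with another row (49975) took no more than 0.0014% of any library, so reads overlapping several rows had been left out. Totals ran from 787600 to 7206176 counts, and 3 counts, the limit that a count of 0 allows, equal 0.416 to 3.81 CPM. Such limits and intervals cover counting error only.

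Genes were filtered with filterByExpr (minimum count 10, minimum total 15), given TMM factors, and compared by the quasi-likelihood test of edgeR 4.0.16 in R 4.3.3 (legacy option off), with Benjamini-Hochberg adjustment over 7836 genes and a threshold of 0.05. SE is the log2 fold change divided by the square root of F. The fitting script was tested on simulated data. The legacy form, the default of this edgeR version, was run first and gave 1879 calls. The newer form was taken after the results of both, including the call of Idi1, had been seen, and the legacy form was then added to the alternatives. The alternatives, including DESeq2 1.42.0 and limma 3.58.1 (voom), are in the closing section.

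The members and lists were chosen with earlier results of these data known. Named were all members, every called gene of each other list, the gene with the smallest p where a list had no call, and the 5 genes with the nearest profile. The uncalled genes of the other sterol list, Srebf2, Nus1 and Lrpap1 were named after their values were seen. In addition, 1 gene that the choice of members also takes and 1 called gene of the other sterol list, which the counts of that list include, are not reported here.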

Additional observations from a re-analysis of the deposited data

How the results depend on the processing

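Of 355 combinations of 24 named genes and 15 alternatives, 300 kept their sign and side of the threshold, 27 lost the call, 14 gained one and 14 turned sign. The older form of edgeR's test was an alternative chosen after seeing the data. Unless noted, the cause of a change was not tested. Calls over all genes (2256) were 0 by edgeR without a filter on low counts (4255 genes had an unadjusted p under 0.05). They were 275 with at least 1 CPM in all libraries, 842 at equal depth without AY036118, and 0 to 3725 with 1 library left out. They were 0 without control replicate 1 (1926 unadjusted), 484 without spermidine replicate 1 and 3725 without spermidine replicate 2. DESeq2 gave 2207, limma-voom 1954 and the older form 1879. The 1 call among the members became 0 with library totals, upper-quartile factors, the older form, no filter, at least 1 CPM, limma-voom, the replicate block and equal depth, and 0 to 3 with 1 library left out. The 4 calls in the other lists became 0 with no filter, 1 with at least 1 CPM, 1 with the replicate block, and 0 to 11 with 1 library left out. With the replicate block all genes had 1775 calls and Idi1 an adjusted p of 0.12 (edgeR). Deviations of same-numbered libraries correlated at -0.03, so the numbers are not taken to pair them.

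Signs turned for Pmvk (-0.50 with no filter, -0.0869 with limma-voom, -0.00754 with the replicate block, -0.92 with transcript rows tested singly, -1.91 to 1.12 with 1 library left out), for Msmo1 and Nsdhl (0.106 and 0.0324 with at least 1 CPM, 0.999 and 0.303 at equal depth), for Nsdhl with 1 library left out (-1.21 to 0.23), for Ebp (0.33 at equal depth) and for Fdps (-0.70 with limma-voom, -7.06 to 1.44 with 1 library left out). With 1 library left out, the lone sample is assumed to vary like the other group. With transcript rows tested singly, a gene with several tested rows is given by its row with the smallest p. Fdps, Fdft1 and Lss had at most 26 counts in a library, with few countable bases in their curated models.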
